A study of Drosophila melanogaster with 3 samples.

Results

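The genes described here encode the machinery that licenses replication origins in Drosophila melanogaster. They are 10 of the 13945 protein-coding genes annotated on the 6 chromosome arms used, chosen by name: the 6 subunits of the MCM helicase (Mcm2, Mcm3, dpa, Mcm5, Mcm6 and Mcm7), the origin recognition subunits Orc1 and Orc2, the loading factor dup and its inhibitor geminin. For each, every deposited region with its summit in the gene body or within 2 kb of either end was taken. The study mapped CG3281, a C2H2 zinc finger protein, by ChIP-seq with an antibody to GFP. Chromatin came from whole embryos of mixed sex, 0 to 24 h old, of a transgenic line stably expressing CG3281 with GFP at its C terminus. The labels describe the transgene as an insertion and name no promoter that drives it. There are 3 biological replicates of 1 group and no second condition. The control libraries that entered the region calling and an untagged line are not analysed here. The values therefore describe where regions were called, in a mixture of all embryonic cell types and ages, and not a response of the genes. A region on its own does not show that a gene's transcription is controlled by the protein.

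The MCM subunits form a ring that is loaded around DNA before S phase and unwinds it once replication starts. The origin recognition complex marks the loading sites, the product of dup (double parked, the fly Cdt1) brings the helicase there, and Geminin binds this loader and stops loading until the next cycle. Many of these genes are known targets of E2F, the factor that switches on S phase genes.

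The sequences that follow are from the promoters of the MCM genes other than dpa, for which none is printed. They are from the RefSeq copy of dm6, on the plus strand, along which the 5 genes shown are transcribed. The first is the 201 bp window around the Mcm2 summit, chr3R:8264678-8264878, which lies between Mcm2 and RPA1 and outside both genes. Capitals mark the 2 copies of a 19-base word, chosen after the sequence had been seen.
Mcm2 summit: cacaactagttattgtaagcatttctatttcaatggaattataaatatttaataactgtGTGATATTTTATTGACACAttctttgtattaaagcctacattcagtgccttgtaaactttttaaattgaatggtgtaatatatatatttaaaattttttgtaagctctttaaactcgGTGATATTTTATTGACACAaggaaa
The word starts at bases 60 and 177 of the window, occurs nowhere else on the 6 arms, and was found in 1 of the 6565 summit windows. Repeated words of that length, whatever their letters, were present in 48 of the 6565 windows (0.731%). The window is also poor in G and C, at 24.4% against a median of 35.3% over the windows of all 6565 peaks, and 3.17% of them were poorer.

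The second is the 200 bp before the Mcm5 start, chr3R:10788324-10788523, shown because replicates 1 and 2 had their summits inside it while the pooled list had no region there. Capitals mark CGATA, the core of the word bound by the boundary protein BEAF-32, which 44.7% of all genes hold within 100 bp of a TSS.
Mcm5 upstream: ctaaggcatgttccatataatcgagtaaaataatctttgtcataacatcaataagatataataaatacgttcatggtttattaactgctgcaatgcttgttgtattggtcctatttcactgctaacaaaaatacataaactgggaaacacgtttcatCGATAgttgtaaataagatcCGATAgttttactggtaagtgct

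The last 5 are stretches of 30 bases at transcription start sites (TSSs), shown for the E2F word in capitals, which may stand on either strand. They lie at chr3R:8264995-8265024 (Mcm2), chrX:5323838-5323867 (Mcm3), chr3R:10788545-10788574 (Mcm5), chrX:6674389-6674418 (Mcm6) and chr3L:8891594-8891623 (Mcm7).
Mcm2 start: ttagcaaacatTTTCCCGCgcattttcgca
Mcm3 start: cacactacgctTTTCCCGCgaaaaaacttt
Mcm5 start: cggtaattttgGCGGCAAAatattcgcaca
Mcm6 start: gtcagaaaaagGCGCCAAAaccgagcaaag
Mcm7 start: tcaaacgcgttTTTGGCGGgaagcgtttac
The word in Mcm7 belongs only to the wider set of 8 words described with the motif counts. The first base of the word lay at 36 bp from the TSS in Mcm2, -6 bp in Mcm3, 32 bp in Mcm5, 13 bp in Mcm6 and 9 bp in Mcm7, where a negative distance is upstream.

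CG3281-GFP was called at the promoters of 4 of the 10 genes: Mcm2 and dpa among the helicase subunits, and Orc1 and dup among the origin and licensing factors. The IDR set is the 6565 peaks that passed the authors' irreproducible discovery rate (IDR) filter. Here a promoter was bound when a summit of that set lay within 500 bp of a TSS. The 7 peaks of the set in the member loci had the same rank there as in the pooled list. Membership of the set does not show that a peak was strong in every replicate. The share of 40.0% has an exact binomial 95% interval of 12.2 to 73.8%, which covers counting error over genes only, and 24.8% of all protein-coding genes were bound (3456 of 13945). The members' share is thus not distinguishable from the background at 10 genes. In the gene body with 2 kb on either side, 6 of the 10 members had a peak, against 42.3% of all genes, and the 2 added genes were Mcm3 and Mcm6. With any region of the pooled list of 30000, which includes background, 6 of 10 had one at a TSS (47.5% of all genes) and 7 of 10 in the wider locus (66.9% of all genes). The members had a median length of 2837 bp (1132 to 4370 bp) and all protein-coding genes one of 2166 bp (168 to 1965857 bp). A longer locus gives more room for a region, and whether length bears on these counts was not tested.

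**Figure D1:**
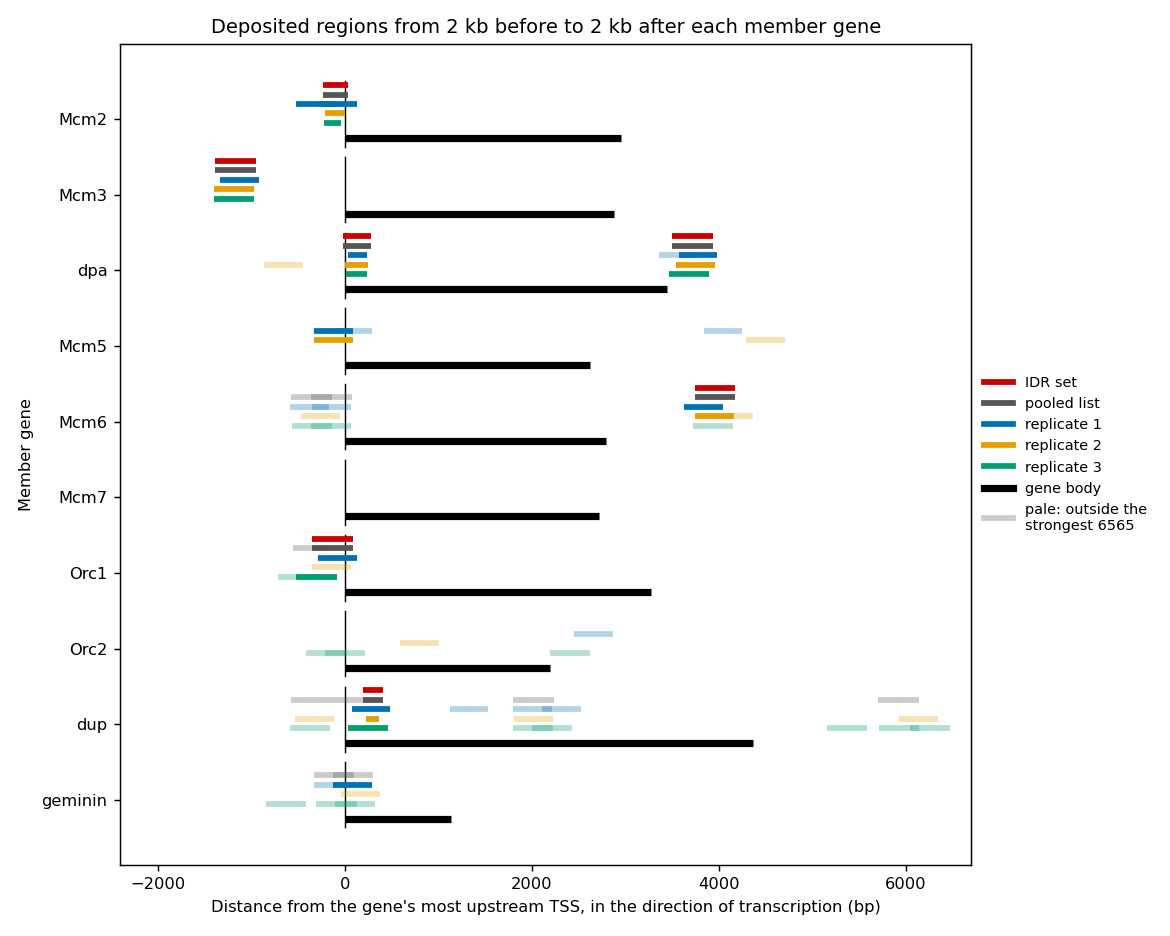
Deposited regions at each member gene. The x axis is the distance in bp from the most upstream TSS in the direction of transcription. Each coloured bar is 1 region of the IDR set, the pooled list or a replicate's list, pale bars are outside the strongest 6565 of their list, and the black bar is the gene body. Peaks lie at the starts of Mcm2, dpa, Orc1 and dup, while those of Mcm3, Mcm6 and the second of dpa lie beyond the gene at a neighbour, and Mcm7 has no region in any list.

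The strongest of these peaks stood at dpa, the fly Mcm4. It spans chr2R:7499865-7500167 with a pooled signal of 884.5, the authors' own value, which serves only to rank regions within a list, and it ranked 798 of 6565. Relative to the median region of each replicate's own list, its signal was 7.68, 8.96 and 6.05 in replicates 1, 2 and 3, a mean of 7.56 ± 1.45 (SD, n = 3). The summit fell in the 5′ UTR of dpa, at -128 bp from the downstream of its 2 TSSs (negative is upstream) and at -142 bp from the TSS of didum. That gene encodes the fly myosin V, and its start is 2 bp from the most upstream start of dpa, on the other strand. Both genes were therefore assigned the same peak. In the replicates the summits lay within 34 bp of each other.

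Mcm2 had a peak at chr3R:8264738-8265006, with a pooled signal of 571.0 and rank 1560. Its relative signal was 3.99, 6.44 and 5.23 in replicates 1, 2 and 3, on average 5.22 ± 1.23 (SD, n = 3). The summit was intergenic, at -192 bp from the Mcm2 TSS and -327 bp from the TSS of RPA1, which encodes the large subunit of the single-strand DNA binding protein RPA. These are 2 replication genes with starts 519 bp apart on opposite strands, and they share 1 peak. Replicate 1 had 2 overlapping regions here, with summits at -314 bp and -78 bp from Mcm2. The first was the stronger (signal 135.5 against 98.77) and lay nearer RPA1, at -205 bp from its TSS. The position was thus less sharply set in replicate 1 than in replicates 2 and 3 (-200 and -168 bp from Mcm2).

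Among the licensing factors, dup had a peak at chr2R:15380579-15380789 with signal 460.9 and rank 2154. Its relative signal was 5.0, 5.15 and 2.44 in replicates 1, 2 and 3 (4.20 ± 1.52, SD, n = 3), and replicate 3 was the low one. The summit was in the 5′ UTR of dup, at -92 bp from its downstream TSS. It was at -18 bp from the TSS of SRPK, which encodes an SR protein kinase, so SRPK was the nearer gene. When each peak was given only to the nearest TSS, dup was no longer bound.

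Orc1, the largest subunit of the origin recognition complex, had the weakest of the 4 promoter peaks. It spans chr2R:7525631-7526066, with signal 243.9 and rank 5056. The relative signal was 2.94, 1.56 and 2.54 in replicates 1, 2 and 3 (2.35 ± 0.713, SD, n = 3). In replicate 2 the region ranked 8129, outside the strongest 6565, so the call at Orc1 was lost when either replicate 1 or replicate 3 was left out. The summit lay at -133 bp from the TSS in the IDR set and at -76, -138 and -301 bp in replicates 1, 2 and 3. No divergent partner was present within 1000 bp.

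**Figure D2:**
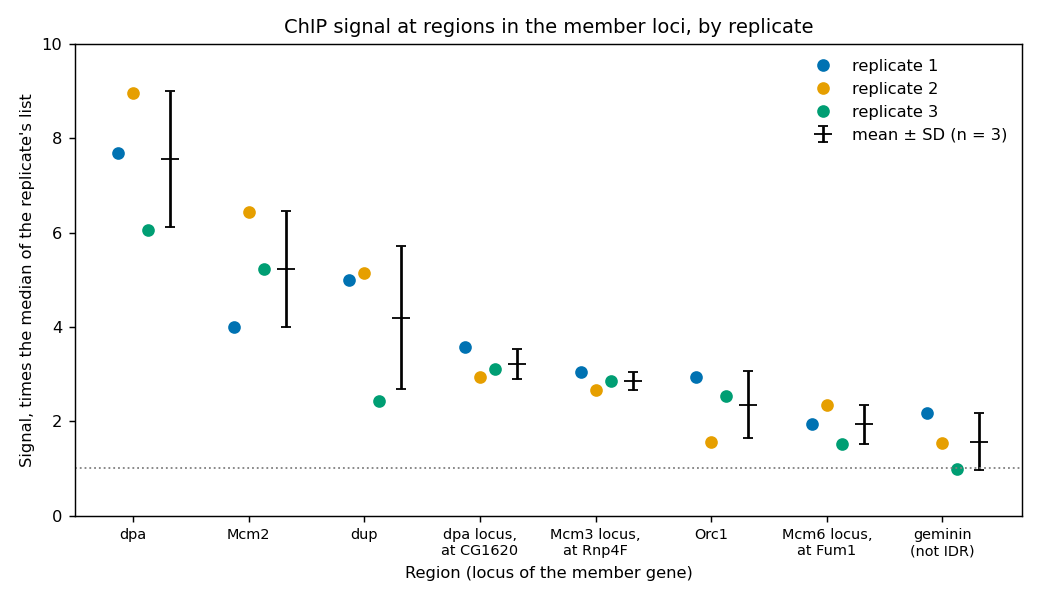
Relative signal of 8 regions in the member loci. The y axis is the authors' signal divided by the median of that replicate's list of 30000 regions, points are the 3 replicates, and bars are the mean ± SD (n = 3). The dpa points lie between 6.05 and 8.96, and the Mcm2 points between 3.99 and 6.44, while replicate 3 falls to 0.985 at geminin, which is not in the IDR set.

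The order of mean relative signal was dpa, Mcm2, dup and Orc1. The values are paired by replicate. The signal of dpa was above that of Mcm2 in replicates 1 (7.68 against 3.99), 2 (8.96 against 6.44) and 3 (6.05 against 5.23), though their ranges overlapped. The order of Mcm2 and dup changed between replicates, as did that of dup and Orc1, so these neighbours were not separated. No test between regions was run on these 3 replicates. Against the strongest peak at each of the 3456 bound genes, whose median signal was 411, dpa ranked 667 at 2.15 times the median and Mcm2 ranked 1151 at 1.39 times. The peak of dup ranked 1510 at 1.12 times the median, and that of Orc1 ranked 2877 at 0.594 times. The 3 promoter-bound genes whose replicate profile lay closest to dpa, of 3288 genes compared, were Arp3 and msk, which share a peak, at a distance of 0.116, and Rok at 0.121. Distances are Euclidean, over the log2 relative signal in the 3 replicates.

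**Figure D3:**
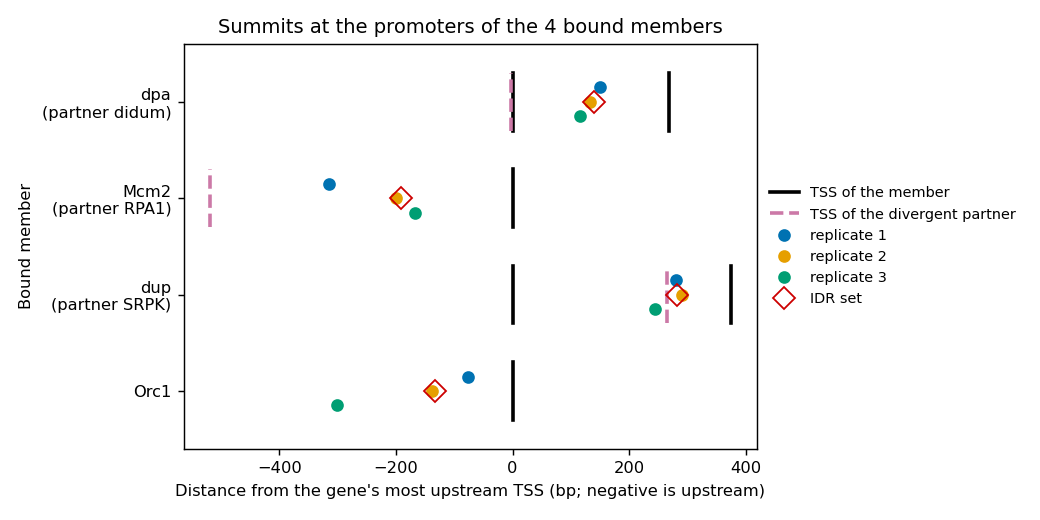
Summit positions at the 4 bound promoters. The x axis is the distance in bp from the member's most upstream TSS, with negative values upstream. Black lines mark the member's TSSs, dashed lines that of the divergent partner, circles the 3 replicates and diamonds the IDR set. Summits of dpa and dup lie between the first and last TSS of the gene, and those of Mcm2 and Orc1 upstream.

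The IDR summits of Mcm2, dpa, Orc1 and dup were at -192, -128, -133 and -92 bp from the nearest TSS of the member, all upstream of it. For dpa the side depended on the list, since the summits of replicates 2 and 3 were 132 and 116 bp downstream of the nearest TSS. The IDR summits of dpa and dup both lay downstream of the gene's most upstream TSS. Over all 3012 promoter summits, measured to the nearest TSS of any gene, the median was -93.0 bp and 72.9% were upstream. Measured that way, the dup summit was at -18 bp, from SRPK.

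The remaining peaks in the member loci had their summits nearer the start of a neighbouring gene than that of the member. The peak counted for Mcm3 spans chrX:5322471-5322906 with signal 331.8, and its summit was 7 bp inside Rnp4F, the gene before Mcm3 on the other strand, and at -1166 bp from the Mcm3 TSS. Its relative signal was 3.05, 2.66 and 2.85 in replicates 1, 2 and 3, the narrowest spread among these peaks. A second peak in the dpa locus, chr2R:7496205-7496640 with signal 351.8, had its summit 43 bp inside CG1620. The peak counted for Mcm6, chrX:6678128-6678563 with signal 223.0, lay 3959 bp from the Mcm6 start, beyond its end, in an intron of ND-ASHI and at -78 bp from the start of Fum1. In the replicates the strongest region there was nearest a start of ND-ASHI, at 39, -78 and -68 bp in replicates 1, 2 and 3. The peak is therefore not assigned to 1 of these 2 genes. A count of gene bodies with flanks therefore credits Mcm3 and Mcm6 with binding that was not at their promoters.

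The other promoters ranged from weak regions to none. At Mcm6 the pooled list had a region with its summit at -142 bp and a signal of 106.7, rank 13674. The replicates had regions of signal 24.49 at -137 bp (replicate 1), 36.35 at -259 bp (replicate 2) and 41.24 at -143 bp (replicate 3). Further regions stood at -353 bp in the pooled list (95.51), -377 bp in replicate 1 (28.15) and -348 bp in replicate 3 (34.69). These, and the region of replicate 2, were nearer the start of CG3198, the divergent partner of Mcm6. The strongest 6565 of the replicate lists begin at 63.4, 70.3 and 83.2, so all of these replicate regions were weaker. The gene geminin was the closest to the threshold. Its region, chr2R:6656286-6656721, had a pooled signal of 195.1 at rank 6712, and the weakest peak of the IDR set had 198.3. Its relative signal was 2.18, 1.55 and 0.985 in replicates 1, 2 and 3 (1.57 ± 0.60, SD, n = 3), and only replicate 1 had it among the strongest.

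Mcm5 had regions among the strongest of 2 replicates but none in the pooled list. Replicate 1 had a region with its summit at -122 bp from the TSS, signal 72.71 and rank 5409. Replicate 2 had one with its summit at -119 bp, signal 97.72 and rank 4153. Both are among the strongest 6565 of their lists, at 2.14 and 2.52 times the list median. Replicate 3 and the pooled list had no region there. Of the 4643 regions shared by the strongest of replicates 1 and 2, 101 (2.18%) had no pooled region, so this absence was uncommon but not unique to Mcm5. For replicates 1 and 3 the share was 0.953%, and for replicates 2 and 3 it was 0.748%. Its cause was not tested.

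Orc2 had only weak regions. Replicate 3 had 2 at the promoter, the stronger with its summit at -196 bp, signal 59.52 and rank 10283, and replicates 1 and 2 had none at the promoter. Mcm7 had no region in its gene body or within 2 kb in any of the 5 lists used. These lists give no read counts, so an absence says only that no region was listed.

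Counting the members among the strongest 6565 regions at a TSS gave 6 in replicate 1, 4 in replicate 2 and 4 in replicate 3, against 24.8%, 26.3% and 24.1% of all genes. The mean was 4.67 ± 1.15 members (SD, n = 3), against 25.1 ± 1.15% of all genes. Mcm2, dpa and dup were present in each replicate. Orc1 was absent in replicate 2, Mcm5 in replicate 3, and geminin in replicates 2 and 3. A region of whatever strength at a TSS was listed in every replicate for 6 of 10 members, against 38.4% of all genes.

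A divergent partner, here a protein-coding TSS upstream on the other strand within 1000 bp, was present for 7 of the 10 genes, against 36.2% of all genes. The exact binomial 95% interval of the members' share, 34.8 to 93.3%, includes that background. Within 500 bp it was 4 of 10, against 27.4% of all genes. The distances were 2 bp for dpa and didum, 110 bp for dup and SRPK, 298 bp for Mcm5 and Art1, and 414 bp for Mcm6 and CG3198. They were 519 bp for Mcm2 and RPA1, 711 bp for Orc2 and Kots, and 732 bp for geminin and sced. Over all genes, 40.6% of those with a partner were bound and 15.8% of those without. Among members it was 3 of 7 with a partner (Mcm2, dpa and dup) and 1 of 3 without (Orc1). Each bound member with a partner shared its peak with that partner, so a peak cannot be assigned to 1 of the 2 genes from these lists.

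Replication genes outside the 10 were bound at about the share of all genes, 17 of 61 (27.9%, against 24.8%). Without replicate 2 it was 11 of 61, against 18.1% of all genes. A divergent partner was present for 39 of the 61, against 36.2% of all genes. None of the other 4 origin recognition subunits (Orc3, Orc4, Orc5 and Orc6) was bound, which with 4 genes allows a share of up to 60.2%. Among the 10 genes for helicase activation and origin firing, 2 were bound. They are Cdc7, the kinase that phosphorylates the helicase, with signal 878.9, and chif, its activating subunit, with 245.8. The count was 1 without replicate 2 (18.1% of all genes) and 1 without replicate 3 (18.6%). None of the 3 MCM-like meiotic genes was bound.

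The counts that follow stand beside the 24.8% of all genes that were bound. At the fork, 3 of 11 polymerase and primase genes were bound: Prim1 (signal 480.1), PolE4 (411.1) and PolD1 (207.2). Of the 9 clamp, clamp loader and lagging strand genes, 2 were bound, CG8142, which encodes a clamp loader subunit, at 970.1 and PCNA2 at 423.7, while PCNA itself was not. RPA1 was the 1 bound gene of 3 for RPA, through the Mcm2 peak, and Ctf4 (663.1) the 1 of 3 fork accessory genes. Of the 4 nucleotide supply genes, RnrS had signal 1009 and dUTPase 666.3. Regions spanning the pooled summit of RnrS had a relative signal of 9.35, 8.27 and 0.636 in replicates 1, 2 and 3. A stronger region of replicate 3 beside that summit would not enter this value, and whether there was one was not examined. Of the 4 genes, 1 was called without replicate 1 (18.7% of all genes) and 1 without replicate 2 (18.1%). Of the 11 E2F, Rb and dREAM genes 5 were bound: Dp, the E2F dimer partner, at 1400, above every member peak, then mip130 (300.2), E2f1 (226.4), mip40 (219.1) and E2f2 (204.3). With any 1 replicate left out, 3 genes of the list were called, against 18.1% to 18.7% of all genes. In the CRL4 ligase that degrades Dup, l(2)dtl was bound (225.1), 1 of 3 genes, and the call was lost with any 1 replicate left out.

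**Figure D4:**
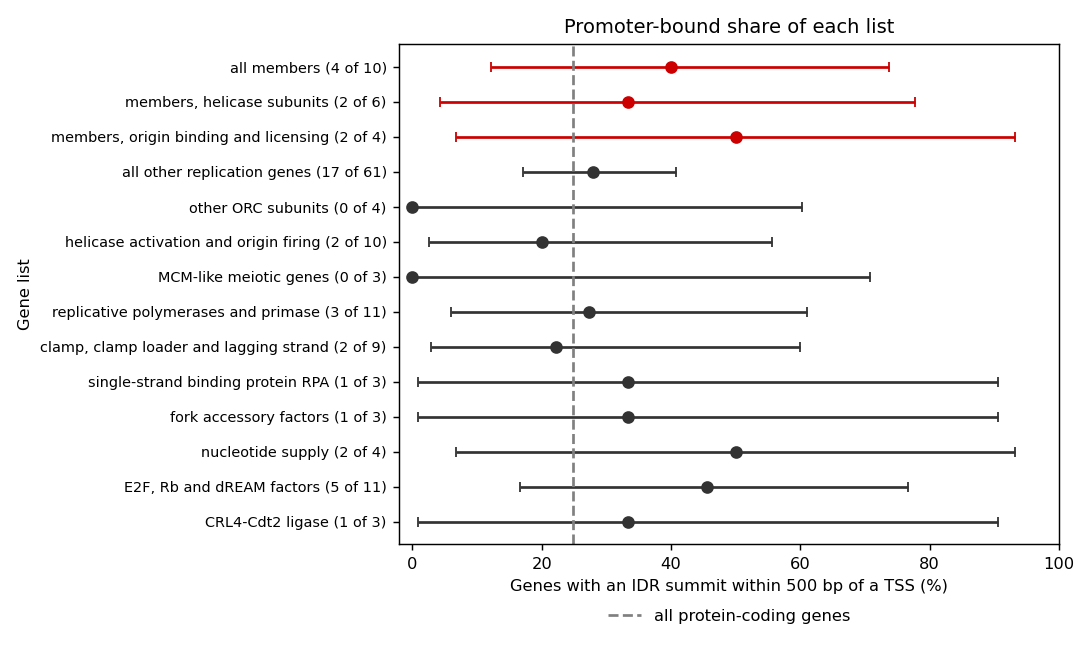
Promoter-bound share of the members (red) and of the other replication gene lists (black). The x axis is the percentage of genes with an IDR summit within 500 bp of a TSS, bars are exact binomial 95% intervals, and the dashed line is the 24.8% of all protein-coding genes. Every interval includes the dashed line.

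Motifs were read first in windows of 201 bp around the 7 IDR summits in the member loci, on both strands. The E2F words TTTGGCGC, TTTCGCGC, TTTGCCGC and TTTCCCGC matched in 2 of the 7, those of dpa and dup, against 3.50% of all IDR windows and 4.77% of all promoter windows. The DRE word TATCGATA matched in 1 (the Mcm3 locus peak at Rnp4F), against 2.80% and 6.45%. The core CGATA, which is part of the DRE word, matched in 2 (Mcm3 and Mcm6), against 27.5% and 37.1%. GAGAG, the word of the GAGA factor, matched in 1 (Mcm6), against 22.0% and 25%. The E-box CAGCTG matched in 1 (dup), against 9.50% and 13.4%, and Ohler motif 1 in 1 (Mcm3), against 1.04% and 3.25%. None of these words was in the windows of Mcm2, Orc1 or the second dpa peak.

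At the start sites the count of E2F words turned on the window used. Several windows were tried after the summit windows had been read, and all are given. Within 100 bp of any TSS, 7 of 10 members held 1 of the 4 words (Mcm2, Mcm3, dpa, Mcm5, Mcm6, Orc1 and dup), against 6.30% of all genes. Within 100 bp of the most upstream TSS alone it was 5 of 10, against 4.50%. In the 200 bp before any TSS it was 2 of 10 (dpa and dup), against 6.18%, and in the 200 bp before the most upstream TSS it was 0 of 10, against 4.43%. With 8 words, those ending in CGG included, the counts in the same order were 9, 6, 2 and 0 of 10, against 10.7%, 8.0%, 9.86% and 7.06% of all genes. The words in Mcm2, Mcm3, Mcm5, Mcm6 and Orc1 lie at or just past the annotated TSS, so windows that end at it leave them out. A matched word is not shown to be a site. Members with and without a CG3281 peak both held it: all 4 bound members, and Mcm3, Mcm5 and Mcm6 among the 6 unbound ones. Over all bound promoters, 9.14% held 1 of the 4 words within 100 bp of a TSS. In the same windows CGATA matched in 5 of 10 members (Mcm2, Mcm5, Mcm7, Orc2 and geminin), against 44.7% of all genes. The DRE word matched in 1 (Orc2), against 8.49%, GAGAG in 1 (Orc2), against 28.7%, the E-box in 3 (Mcm6, Mcm7 and dup), against 17.4%, and Ohler motif 1 in 1 (Mcm3), against 4.34%.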

How the data were processed

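Genomic regions bound in ChIP-seq were taken from the authors' dm6 lists: 1 per replicate, 1 from the pooled replicates (each 30000 regions, background included) and the IDR set of 6565. The deposited signal is the authors' value per region, on a scale that differs between lists (medians 33.9, 38.7 and 43.7 in replicates 1, 2 and 3). The deposited summit offset gives each summit. Per the labels' notes, each list was made from alignments and 1 control. Which aligner, caller and IDR cutoff were used is not given in the sources used here. Read depth is unknown.

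Coordinates are dm6, 1-based. Gene models are Ensembl release 115 and sequence is RefSeq's copy of the same assembly. Arm lengths were checked against both. Relative signal is the strongest region spanning the pooled summit, divided by the median of its list. Computing used Python 3.11.15, numpy 2.4.6, scipy 1.17.1, pandas 2.3.3 and matplotlib 3.10.9, and the assignment of summits was tested on simulated data. There was no second group, so no test between conditions was run.

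Named genes are all 10 members with their partners, up to 4 bound genes per list by signal, and the 3 genes nearest dpa. E2f2, the fifth bound gene of its list, was added after its value was seen. In the lists of other replication genes, 3 of 61 names had a newer symbol. The members and lists were chosen with earlier results of these data known. The TSS windows, the 8 E2F words, the Mcm2 repeat and the sequences printed other than that of Mcm2 were chosen after seeing the data. The dm3 lists were not used.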

Additional observations from a re-analysis of the deposited data

How the results depend on the processing

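The 4 bound members stayed at 4 with TSS windows of 250 bp and 1000 bp and with the most upstream TSS only. The share of all genes bound was 20.0%, 28.6% and 22.2% at these settings, against 24.8% as reported. The count was 3 among the strongest 3282 peaks of the IDR set (Orc1 lost) and with the nearest TSS only (dup lost), 6 with any pooled region, and 3 to 4 when each replicate was left out. Mcm2 and dpa were bound under every one of these settings. The 17 other replication genes bound became 10 among those 3282 peaks, 31 with any pooled region and 6 with the nearest TSS only, and 11 to 13 without 1 replicate. The share of all genes bound was 15.2% among those 3282 peaks and 47.5% with any pooled region. It was 19.3% with the nearest TSS only and 18.1% to 18.7% without 1 replicate. With the nearest TSS only, the other replication genes (6 of 61) thus fell further than all genes did. Of those 61 genes 39 had a divergent partner, against 36.2% of all genes, and whether that bears on the fall was not tested. Members with a peak in the locus numbered 6, against 2 in the gene body alone (16.6% of all genes) and 3 among the strongest 3282 peaks (28.2% of all genes). With a flank of 1 kb the count was 4 (35.9% of all genes), without Mcm3 and Mcm6. The mean of 4.67 members among the strongest regions was 2.67 with the strongest 3282 regions per list (15.3% of all genes). Divergent partners numbered 7 within 1000 bp and 4 within 500 bp (27.4% of all genes). E2F words at the starts of the members ranged from 0 to 9 of 10 over the windows and word sets tried, and those at the summits were found in 1 window at 50 bp (1.65% of all summit windows) and in 4 windows at 150 bp either side (5.61%), against 2 at 100 bp (3.50%). Leaving out a replicate meant keeping peaks found among the strongest regions of both others, since peaks were not called again. With 1 group there were no conditions to pair, and the regions compared by signal were measured in the same 3 replicates. With 10 genes the interval on a share is wide, and no reads were available to say how deeply a promoter without a region was sampled.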
